A study of Drosophila melanogaster with 20 samples.

Results

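Bomanins are short secreted peptides of Drosophila melanogaster that are induced through the Toll pathway after infection. They are made mainly by the fat body, released into the haemolymph, and needed for defence against fungi and Gram-positive bacteria. In Toll signalling, recognition proteins start a cascade of serine proteases that cleaves the ligand Spätzle. The ligand activates the receptor Toll, and the adaptor Myd88 and the kinases downstream then release the transcription factors Dif and Dorsal from the inhibitor Cactus. The rule chose genes by symbol, without using measured values: CG16836 and the immune-induced molecule genes IM1, IM2, IM3, IM4, IM10, IM18 and IM23. Of these 8 genes, 7 were rows of the table of 9831 genes and are described here, and IM18 was not a row of it. All 7 were assigned to chromosome arm 2R in the table.

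By the later names in the reference annotation, 5 of the 7 are Bomanins. IM1, IM2 and IM3 are the short-form genes BomS1, BomS2 and BomS3, CG16836 is the tailed form BomT2, and IM23 is BomBc1, whose peptide carries a pair of Bomanin motifs. The other 2 belong to other families of Toll-induced peptides: IM4 is Dso1 (Daisho), and IM10 is a Baramicin A gene, whose precursor is cut into several antifungal peptides. The label Bomanin therefore covers 5 of the measured genes, and all 7 together are called the Bomanin and IM genes below. IM10 and CG33470, another Baramicin A copy, differed by at most 0.260% in any of the 20 libraries, so these rows cannot be told apart and IM10 stands for both copies.

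Polyadenylated RNA had been sequenced as single 50-base reads from pools of 25 to 30 heads of adult males, which were taken from populations of both sexes. The 4 groups were midlife chm/+ (22 to 23 days, n = 5), young chm/+ (7 days, n = 6), midlife wild type (wt, 22 to 23 days, n = 4) and young wild type (7 days, n = 5). chm/+ flies are heterozygous for a mutation of chameau (chm), a gene for a histone acetyltransferase, and the labels name neither the allele nor the genetic background. The comparisons ask how heads change between youth and midlife and whether that change depends on chm. Values are normalized counts, and libraries carry their column names, in which CHMo marks midlife chm/+, CHMy young chm/+, 2uo midlife wild type and 2uy young wild type. Single values below follow the order CHMo2, CHMo3, CHMo11, CHMo12 and CHMo5 for midlife chm/+, 2uo4, 2uo5, 2uo1 and 2uo2 for midlife wild type, and 2uy1, 2uy2, 2uy3, 2uy4 and 2uy5 for young wild type. Nothing in the sources says that the libraries of a group came from separate cultures, so p-values measure the spread between these libraries, which may be partly technical.

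Column totals ran from 27572012 to 30470376 normalized counts. chm stood at 283 to 364 in the 11 chm/+ libraries and at 571 to 678 in the 9 wild-type libraries. All 5 neuronal and all 6 photoreceptor markers sought were in the table, as were 7 of 8 fat body and 8 of 9 haemocyte markers, 4 of 8 gut markers and 0 of 8 of testis and accessory gland. The number in the column name went with shared deviations in the chm/+ libraries only. Results in chm/+ are also given with the number as a replicate block, a fit added after the data were seen, where it changes a call. That fit rests on 4 pairs, since CHMo5, CHMy1 and CHMy4 have no partner.

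All 7 Bomanin and IM genes had positive log2 differences between midlife and youth in both genotypes. In chm/+ heads 6 of the 7 rose and 0 fell, all but IM4, with a median log2 difference of 1.03 over the 7. In wild-type heads 3 rose, IM10, CG16836 and IM23, and 0 fell, with a median of 0.80. Over all genes the median was -0.01 in chm/+ and -0.02 in wild type, where 8.63% and 12.4% of genes were called higher, and 7.36% and 11.3% lower (limma, adjusted p under 0.05). The midlife groups lay wholly above the young groups for 3 of the 7 genes in chm/+, against 4.59% of all genes, and for 1 of 7 in wild type, against 10.9% of all genes. With the replicate block 4 of the 7 were called in chm/+. The share of all genes called by that fit is not given here, so the lower count cannot be set against it. The count in chm/+ was 3 without CHMo2, CHMo3 or CHMy4. In wild type it ran from 2 to 6, at 5 without 2uy3 and 6 without 2uo2. It was 2 without any 1 of the other wild-type libraries, where IM23 lost its call. The number of all genes called in either direction moved as well over single libraries left out. It ran from 1235 to 1737 in chm/+ (1572 in the main fit) and from 1601 to 2400 in wild type (2329 in the main fit). In samples of whole heads, more cells of a type cannot be told apart from more RNA per cell.

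**Figure D1:**
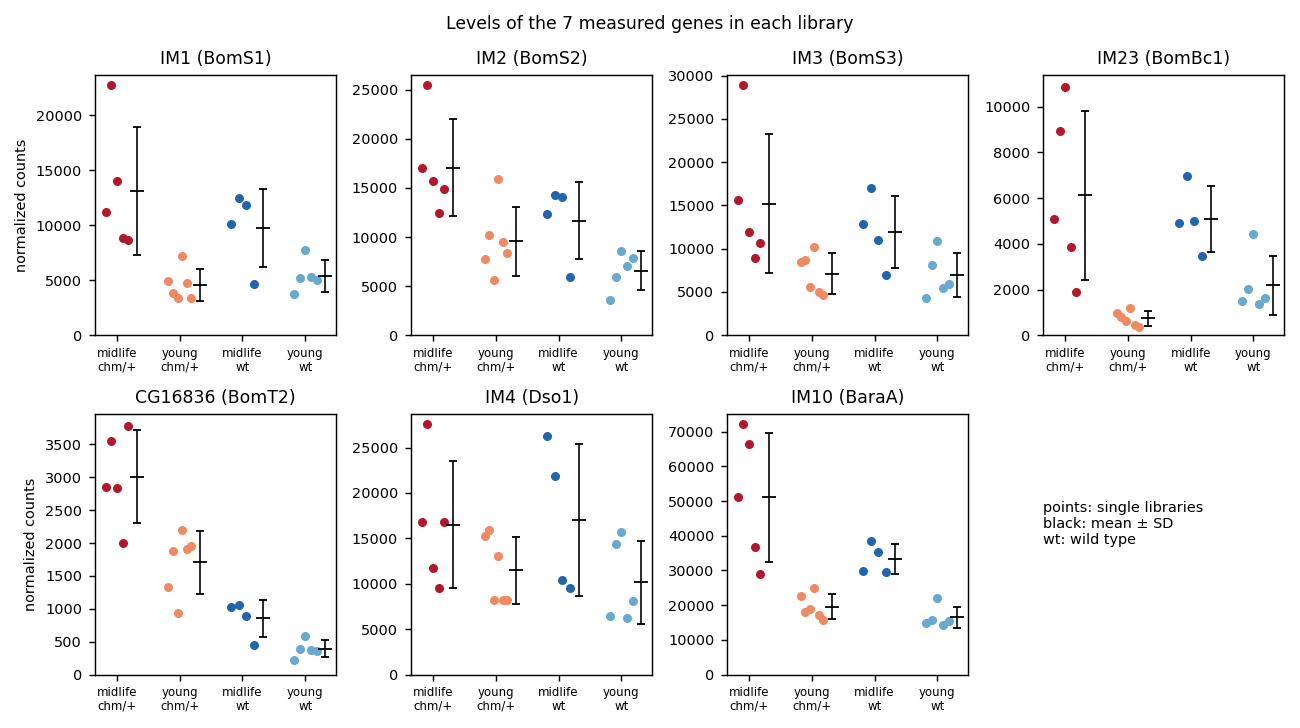
Normalized counts (linear axes from 0) of the 7 measured genes in every library of the 4 groups, with the mean and SD of each group in black. CG16836 separates the genotypes at both ages, whereas IM23 is lowest in young chm/+ heads, at 354 to 1205.

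IM1 (BomS1), a short-form Bomanin, read 11193, 22708, 13974, 8801 and 8664 in midlife chm/+ heads, against a lowest value of 3384, a median of 4286 and a highest of 7188 in young chm/+ heads. The groups did not overlap, and CHMo3 was far above the other midlife libraries. The log2 difference was 1.47 (SE 0.28, adjusted p = 0.00107), a 2.76-fold rise. In wild type IM1 read 10071, 12513, 11843 and 4680 at midlife, against 3713, 5190, 7736, 5253 and 5022 in youth. Here 2uo2 lay among the young libraries and the other 3 lay above them all, and the difference of 0.80 (SE 0.31) was not called (adjusted p = 0.0673). It was called without 2uo2 (1.12, adjusted p = 0.00966), 2uy3 or CHMo3.

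IM2 (BomS2) read 16974, 25443, 15669, 12422 and 14853 in midlife chm/+ heads, and 5632, 8918 and 15923 as the lowest, median and highest in young chm/+ heads. CHMy1, at 15923, was above 3 of the 5 midlife libraries. The log2 difference was 0.87 (SE 0.27, adjusted p = 0.0367), and 9 of the 20 libraries ended this call when left out singly (CHMo2, CHMo3, CHMo5, CHMo11, CHMy2, CHMy3, CHMy4, CHMy11 and CHMy12), with adjusted p up to 0.115. With the replicate block it was 0.93 (adjusted p = 0.0600). In wild type IM2 read 12291, 14288, 14101 and 5963 at midlife, against 3541, 5961, 8551, 7051 and 7825 in youth. The 3 midlife libraries other than 2uo2 lay above all young ones, and the difference of 0.80 (SE 0.30) missed the threshold (adjusted p = 0.0625) but passed it without 2uo2, 2uy3 or CHMy1.

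IM3 (BomS3) read 15578, 28912, 11982, 8934 and 10648 in midlife chm/+ heads, against 4650, 7008 and 10257 as the lowest, median and highest in young chm/+ heads. CHMo12 lay inside the young range, and CHMo3 was again far above the rest. The gene rose by 1.03 on the log2 scale (SE 0.31, adjusted p = 0.0258). Leaving out CHMo2, CHMo3, CHMy4, CHMy11 or CHMy12 ended the call (highest adjusted p = 0.0884). Wild-type heads had 12861, 17010, 10957 and 6918 at midlife, against 4353, 8157, 10867, 5488 and 5910 in youth. With 2uo2 inside and the other 3 midlife libraries above the young range, the difference was 0.78 (SE 0.34, adjusted p = 0.106), called without 2uo2 (adjusted p = 0.0480). The 3 short-form genes thus had wild-type differences between 0.78 and 0.80 on the log2 scale, none of them called.

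CG16836 (BomT2), the tailed form, read 2859, 3559, 2843, 1995 and 3787 in midlife chm/+ heads, against 940, 1900 and 2203 as the lowest, median and highest in young chm/+ heads. Only CHMo12 lay within the young range, and the gene rose by 0.83 on the log2 scale (SE 0.26, adjusted p = 0.0321). That call was lost without CHMo2, CHMo3, CHMo5, CHMo11, CHMy2 or CHMy4 (adjusted p up to 0.0907) and with the replicate block (0.65, adjusted p = 0.191). Wild-type heads had 1021, 1058, 893 and 444 at midlife, against 227, 393, 591, 379 and 363 in youth. Again 2uo2 was the library that overlapped. The wild-type rise of 1.09 (SE 0.29, adjusted p = 0.00918) held without any single library, with adjusted p at most 0.0419.

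IM23 (BomBc1) had the largest log2 difference with age of the 7 genes in both genotypes. It read 5067, 8936, 10882, 3876 and 1873 in midlife chm/+ heads, against 354, 720 and 1205 as the lowest, median and highest in young chm/+ heads. The groups did not overlap, although the midlife libraries spanned 5.81-fold. The log2 difference was 2.89 (SE 0.41, adjusted p = 5.99e-05), a 7.40-fold rise, and adjusted p was at most 0.000337 without any single library. In wild type it read 4904, 6974, 5014 and 3472 at midlife, against 1484, 2013, 4431, 1367 and 1612 in youth, where 2uy3 was above the lowest midlife library. The wild-type rise was 1.32 (SE 0.45, adjusted p = 0.0377), and that call was lost without any 1 of the wild-type libraries other than 2uo2 and 2uy3, with adjusted p up to 0.121.

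IM4 (Dso1) was called in neither genotype. It read 16766, 27614, 11700, 9552 and 16845 in midlife chm/+ heads, and 8178, 10631 and 15923 as the lowest, median and highest in young chm/+ heads. CHMo11 and CHMo12 lay within the young range, and the log2 difference was 0.49 (95% interval -0.20 to 1.18, adjusted p = 0.383). Wild-type heads had 26295, 21816, 10415 and 9570 at midlife, against 6435, 14407, 15753, 6228 and 8062 in youth. Of the midlife libraries 2 were high and 2 lay inside the young range, and the difference was 0.72 (95% interval -0.05 to 1.49, adjusted p = 0.179).

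IM10 (Baramicin A) had the smallest SD relative to the mean of the 7 genes in 3 of the 4 groups, with 13.0% in midlife wild type, and not in midlife chm/+, where its 36.3% was above the 23.4% of CG16836. It read 51266, 72196, 66541, 36667 and 29018 in midlife chm/+ heads, against 15811, 18476 and 25038 as the lowest, median and highest in young chm/+ heads. The rise of 1.32 (SE 0.20, adjusted p = 0.000114) was one of 2.49-fold, with no overlap. Wild-type values were 29738, 38452, 35179 and 29644 at midlife, against 14869, 15863, 21968, 14369 and 15394 in youth. These groups did not overlap either, and the rise was 1.02 (SE 0.22, adjusted p = 0.00196). IM10 was the single gene of the 7 with separated age groups in both genotypes.

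**Figure D2:**
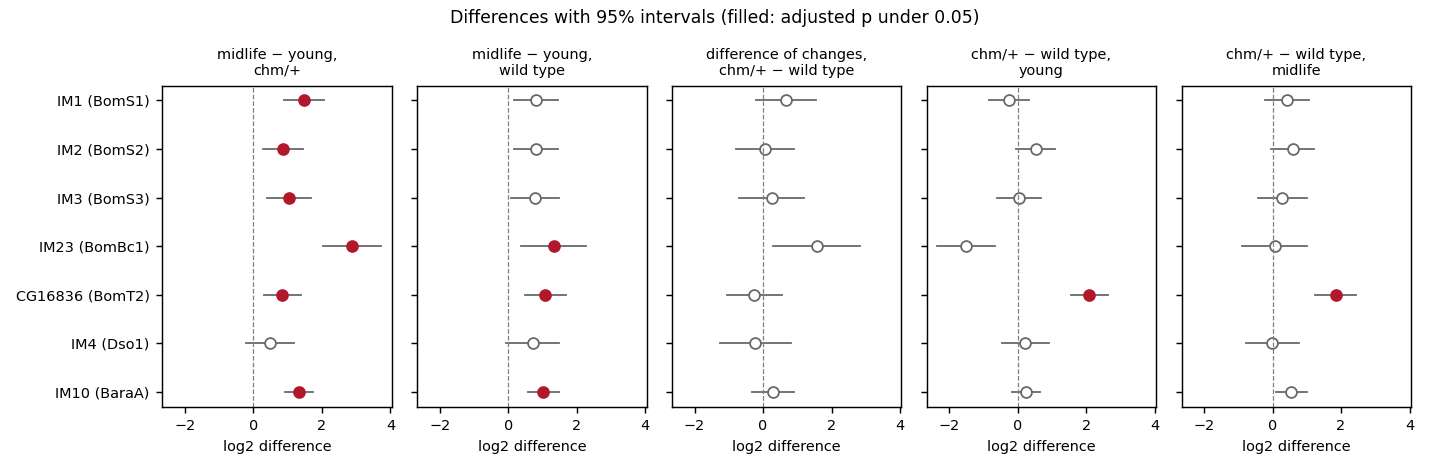
Log2 differences (horizontal axis) with 95% intervals for the 7 genes in the 5 comparisons, filled red where limma's adjusted p was under 0.05. In both genotypes all 7 changes with age are above 0, and CG16836 is the single gene called between genotypes.

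The first 10 and the last 10 columns of the table each hold all 4 groups, and no batch is labelled. Within each set of columns alone, all 7 log2 differences with age were positive in both genotypes. In the first set 5 of the 7 were called in wild type, where 31.5% of all genes were called in either direction, and 6 in chm/+, where 18.8% were. In the last set, where 3.98% of genes were called in wild type and 3.7% in chm/+, from 2 against 2 wild-type and 3 against 3 chm/+ libraries, 0 of the 7 were called in wild type and 1, IM23 at 2.85 (adjusted p = 0.0279), in chm/+. IM2 had the widest gap between sets in chm/+, 1.44 in the first and 0.40 in the last.

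Whether chm/+ and wild type differed in their change with age was tested directly, and 0 of the 7 genes were called, where 0.356% of all genes were. At an unadjusted p under 0.05 limma gave 1 of the 7, IM23, against 6.66% of all genes. For IM23 the log2 difference in chm/+ minus that in wild type was 1.56 (95% interval 0.30 to 2.83, unadjusted p = 0.0179, adjusted p = 0.596). It ranked 4th from the highest of 9831 genes by the size of this difference. With the replicate block in chm/+ it was 2.11 (adjusted p = 0.102). The intervals of the other 6 genes included 0, among them IM1 at 0.66 (-0.21 to 1.53), IM10 at 0.30 (-0.32 to 0.91) and CG16836 at -0.25 (-1.06 to 0.55). Intervals of this width do not show that the changes were alike.

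The genotypes differed in the level of CG16836 at both ages. Young chm/+ heads had 940 to 2203 (median 1900), against 227 to 591 (median 379) in young wild-type heads, with no overlap. The log2 difference was 2.09 (SE 0.26, adjusted p = 7.85e-05), which is 4.26-fold and the highest of the 9831 genes in that comparison. At midlife chm/+ heads had 1995 to 3787, against 444 to 1058 in wild type, again apart, with a difference of 1.84 (SE 0.29, adjusted p = 0.000633) or 3.58-fold, the fifth highest. Of all genes, 0.895% were called higher and 0.559% lower in young chm/+ heads, and 0.712% higher and 1.24% lower in midlife chm/+ heads. All chm/+ libraries stood above all wild-type libraries for 1.59% of genes in youth and 2.09% at midlife. Every young chm/+ library but CHMy4, at 940, lay at or above 1328, and the highest midlife wild-type library, 2uo5, read 1058. Without any single library adjusted p was at most 0.000364 in youth and 0.00345 at midlife. Within column sets the young difference was 1.78 in the first and 2.40 in the last, both called. At midlife it was 1.60 in the first set (adjusted p = 0.0550) and 2.11 in the last (adjusted p = 0.0202).

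IM23 stood lower in young chm/+ heads, at 354 to 1205 against 1367 to 4431 in young wild-type heads. No library overlapped, which held in the same direction for 1.18% of all genes. The log2 difference of -1.51 (SE 0.41) was the fourth lowest of 9831 genes but missed the threshold (adjusted p = 0.0725). Over single libraries left out, adjusted p ran from 0.0322 without CHMo5, the one such fit in which it was called, to 0.232 without 2uy3 (-1.22). With a term for the column set it was -1.45 (adjusted p = 0.0312), with array weights -1.90 (adjusted p = 0.00366), in the first 10 columns alone -1.55 (adjusted p = 0.0496) and in the last 10 alone -1.33 (adjusted p = 0.847). In that order these fits called 394, 3194, 292 and 17 of all genes in this comparison, against 143 in the main fit. At midlife IM23 read 1873 to 10882 in chm/+ and 3472 to 6974 in wild type, a difference of 0.06 (95% interval -0.88 to 1.00). Within a library the ratio of CG16836 to IM23 was 0.261 to 2.02 in midlife chm/+ heads and 1.33 to 5.54 in young chm/+ heads. It was 0.128 to 0.208 in midlife and 0.133 to 0.277 in young wild-type heads, without overlap between genotypes at either age. In youth the ratio could not overlap, because each gene alone already separated the genotypes in opposite directions. The pair has the highest and lowest genotype difference of the Bomanin and IM genes in youth. The ratio thus restates their levels and is no further test.

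The other 5 genes were called between genotypes at neither age. At midlife IM10 stood 0.55 higher in chm/+ on the log2 scale (95% interval 0.09 to 1.00, adjusted p = 0.281) and IM2 0.59 higher (-0.05 to 1.22, adjusted p = 0.414). IM2 stood 0.53 higher in young chm/+ heads (-0.05 to 1.10, adjusted p = 0.369). IM1, IM3 and IM4 had differences between -0.25 and 0.42 on the log2 scale over both ages.

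**Figure D3:**
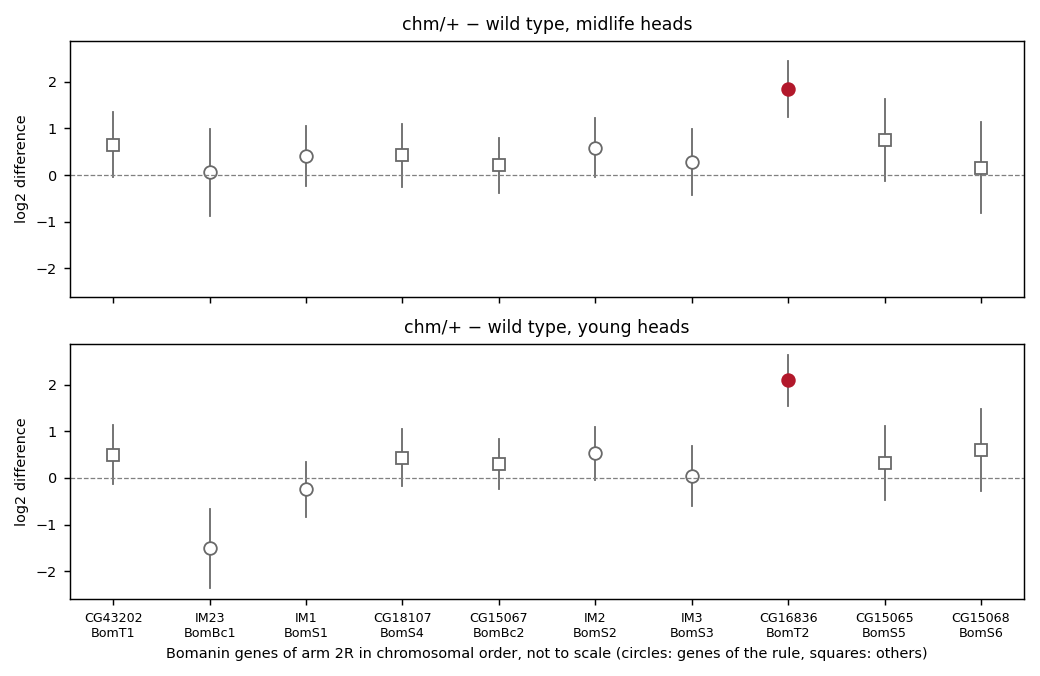
Log2 difference between chm/+ and wild type (vertical axis, with 95% intervals) for the 10 Bomanin genes of arm 2R in the order of the later annotation, midlife above and young below. CG16836 is the single called gene (red), at 1.84 in midlife and 2.09 in young heads.

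The reference annotation names 12 Bomanin genes, and all 12 were in the table. Of these, 10 lie on arm 2R and 2 (CG5778 and CG5791) on arm 3R. The 7 Bomanins outside the rule were called between genotypes at neither age, with log2 differences of 0.04 to 0.60 in youth and 0.16 to 0.90 at midlife. On either side of CG16836 in this order, IM3 differed by 0.04 and CG15065 (BomS5) by 0.32 in young heads. With age, 7 of the 12 rose in chm/+ and 3 of the 12 in wild type, and 0 fell, against 8.63% and 12.4% of all genes called higher. Most of these are genes of the rule: of the 7 outside it, 2 rose in chm/+ and 1 in wild type. CG43202 (BomT1) rose in both, by 1.36 in chm/+ and 1.21 in wild type, and CG5791 (BomBc3) rose in chm/+ by 1.40. CG18107 (BomS4), next to IM1, differed by 0.19 in chm/+ and 0.21 in wild type, neither called. CG18107 and CG15067 overlap in the later annotation and the strand setting of the counting is not given in the sources used here, so reads from the overlap cannot be told apart.

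Levels were set side by side per kilobase of exon, with lengths from the later annotation, from 361 bases in IM1 to 1160 in IM10. The order depends on these lengths. By counts alone IM10, which stands for both copies, had the highest mean of the 7 in each group. In midlife chm/+ heads it averaged 51138, against 17072 for IM2. IM2 had the highest mean of the 7 in each group, at 46518 ± 13529 in midlife chm/+, 26052 ± 9525 in young chm/+, 31773 ± 10638 in midlife wild type and 17945 ± 5325 normalized counts per kilobase in young wild type (SD, n = 5, 6, 4 and 5). In midlife chm/+ heads IM10 at 44084 ± 16009 and IM1 at 36199 ± 16085 followed, within 1 SD of IM2. IM4 at 21506 ± 9103 and IM3 at 19780 ± 10454 came next and were within 1 SD of each other. IM23 (13092 ± 7908) and CG16836 (7855 ± 1840) were the lowest pair, and the same pair was lowest in all 4 groups. Their order was turned round in young chm/+ heads, where CG16836 averaged 4453 ± 1235 and IM23 1585 ± 692 per kilobase. The 7 genes together made up 0.281% to 0.642% of the normalized counts in midlife chm/+ libraries and 0.144% to 0.248% in young chm/+ libraries. In wild type the share was 0.218% to 0.396% at midlife and 0.126% to 0.249% in youth.

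Libraries of a group deviated from its mean in the same direction for most of the 7 genes. For all 7 genes 2uo2 was the lowest of the midlife wild-type libraries, and 2uy3 the highest of the young ones. CHMy1 was the highest young chm/+ library for 6 of 7 and CHMo3 the highest midlife chm/+ library for 5 of 7. After centring each group, all 21 pairs of genes had a positive Pearson r over the 20 libraries, between 0.24 (CG16836 and IM10) and 0.94 (IM10 and IM23), with a median of 0.68. IM3 and IM4 reached 0.87, as did IM1 and IM2. CG16836 followed IM2 (0.86) more closely than IM23 (0.26). In CHMo5 IM1, IM10 and IM23 were the lowest of the group while CG16836 was the highest. These values are a description of libraries that share their processing and scaling. The same counts were not made over all genes, so they are not shown to be particular to these 7.

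**Figure D4:**
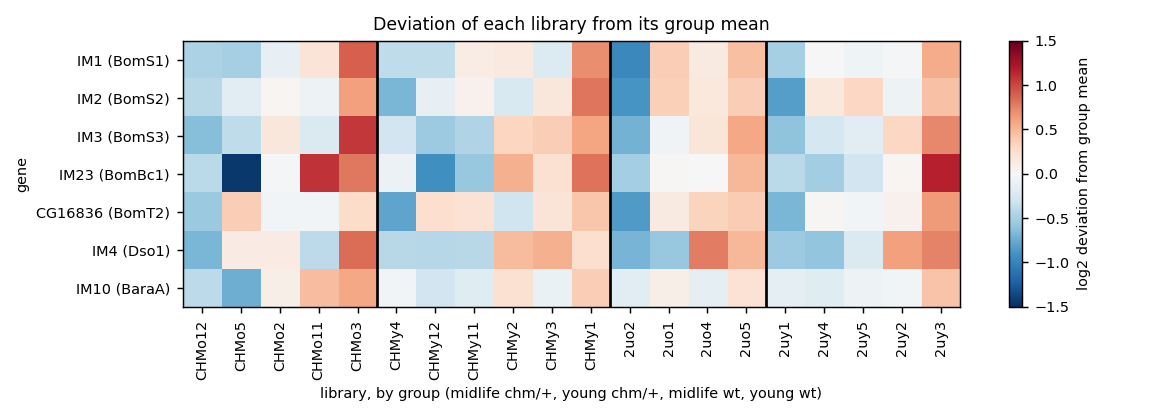
Log2 deviation of each library (columns, ordered by mean deviation within a group) from its group mean for the 7 genes (rows), red above and blue below. Library 2uy3 is above and 2uo2 below its group mean for every gene, by 0.67 and -0.68 on average.

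Of all genes outside the rule, 5 had group-centred values most like the mean profile of the 7 over the 20 libraries. They were CG5791 (BomBc3, Pearson r = 0.91), CG13422 (GNBP-like3, 0.85), Drs, the antifungal peptide drosomycin and a classical Toll target (0.81), CG43202 (BomT1, 0.81) and CG11686 (0.81). Drs had a lowest, median and highest value of 8035, 15575 and 35157 in midlife chm/+ heads, and of 467, 689 and 863 in young chm/+ heads. In wild type these were 1007, 7304 and 13264 at midlife and 236, 318 and 4939 in youth. The 4939 belonged to 2uy3, so the young wild-type mean of 1274 rests on that library. Drs rose with age by 4.71 in chm/+ (SE 0.68, adjusted p = 8.22e-05) and by 3.09 in wild type (SE 0.75, adjusted p = 0.00532).

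Genes upstream of these peptides had smaller median differences with age. Toll recognition proteins and proteases rose in 6 of 12 in chm/+ and in 10 of 12 in wild type, and 0 fell, with median log2 differences of 0.22 in chm/+ and 0.51 in wild type. The called gene with the smallest p was Hayan, a clip-domain protease, in chm/+ (0.77, SE 0.15, adjusted p = 0.00136). In wild type it was spheroide, a serine protease homologue (4.54, SE 0.41, adjusted p = 2.10e-07), which averaged 967 ± 187 at midlife and 28.0 ± 8.64 in youth. spheroide also rose in chm/+, by 1.81 (SE 0.37, adjusted p = 0.00185), and the change there minus that in wild type was -2.73 (SE 0.55, adjusted p = 0.0286).

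The Toll ligand, receptor and intracellular genes had 3 of 9 rising in chm/+ and 4 of 9 in wild type, with 0 falling in chm/+ and 1 in wild type, and medians of 0.14 in chm/+ and 0.35 in wild type. Dorsal (dl) rose by 0.36 in chm/+ and 0.39 in wild type. Myd88 rose by 0.27 in chm/+ and 0.47 in wild type, and cact (Cactus) by 0.25 in chm/+ and 0.39 in wild type. Called in neither genotype were spz (Spätzle, 0.16 in chm/+ and 0.41 in wild type), Tl (Toll, 0.14 in chm/+ and 0.24 in wild type) and Dif (0.11 in chm/+ and 0.07 in wild type). The one gene that fell was Pli, a Pelle-interacting protein gene, in wild type (-0.55, adjusted p = 0.0184).

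Among 10 other effectors led by Toll, 5 of them Bomanins, 4 rose in chm/+ and 3 in wild type, and 0 fell, with medians of 0.84 in chm/+ and 0.72 in wild type. CG18067 (Bombardier, a secreted peptide on which short-form Bomanins depend) had the smallest p in both, at 1.96 (SE 0.24, adjusted p = 1.12e-05) in chm/+ and 1.84 (SE 0.26, adjusted p = 4.93e-05) in wild type. IM14 (Dso2), the paralogue of IM4, was like IM4 called in neither genotype, at 0.38 in chm/+ and 0.59 in wild type. The antimicrobial peptides led by the Imd pathway rose in 11 of 12 in chm/+ and 10 of 12 in wild type, and 0 fell. Their medians of 3.74 in chm/+ and 3.05 in wild type stood above those of the Bomanin and IM genes. Dro (drosocin) rose by 4.43 in chm/+ (SE 0.57, adjusted p = 2.11e-05) and AttD (attacin D) by 2.53 in wild type (SE 0.42, adjusted p = 0.000200).

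Imd recognition and signalling genes rose in 3 of 13 in chm/+ and 6 of 13 in wild type, with medians of 0.10 in chm/+ and 0.24 in wild type. PGRP-LF, a receptor that inhibits the pathway, rose by 0.96 in chm/+ and 1.10 in wild type. Of 4 measured negative regulators of Imd, 3 rose in chm/+ and 2 in wild type, among them pirk by 1.01 in chm/+ and 0.85 in wild type. Medians of these 4 were 0.94 in chm/+ and 0.77 in wild type. Their differences ran from -0.05 to 3.55 in chm/+ and from -0.05 to 3.81 in wild type.

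**Figure D5:**
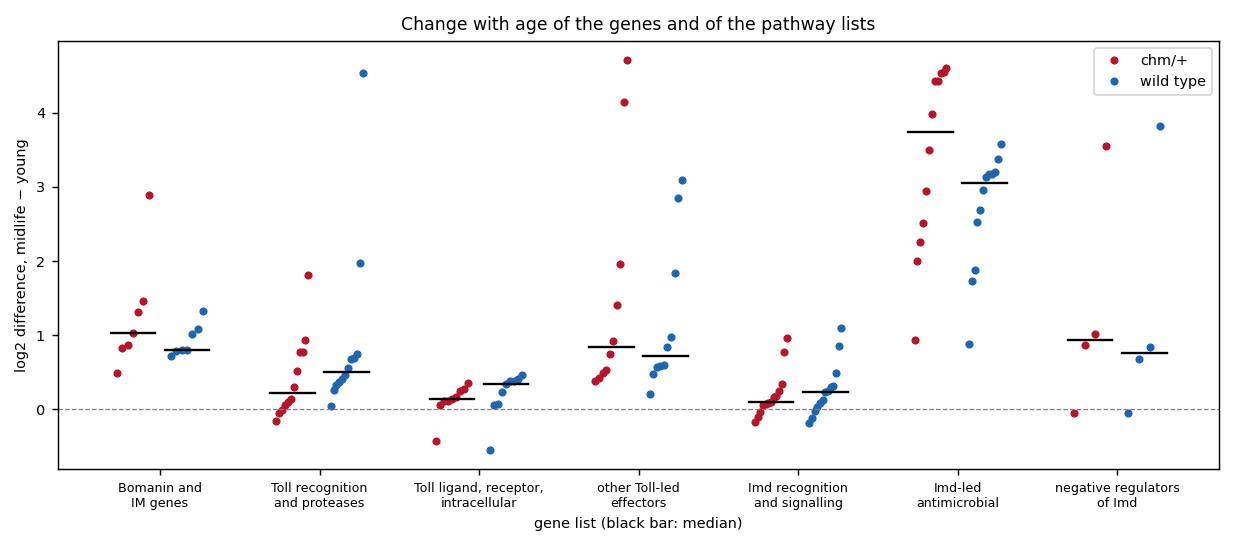
Log2 difference between midlife and young heads (vertical axis) for single genes (points) of the Bomanin and IM genes and of 6 pathway lists, chm/+ in red and wild type in blue, with medians as black bars. The Imd-led peptides have the highest medians, 3.74 in chm/+ and 3.05 in wild type, against 1.03 and 0.80 for the Bomanin and IM genes.

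Markers of the tissues in the head did not move as one. The log2 difference with age was negative for all 5 neuronal markers, with a median of -0.20 in chm/+, where 0 were called, and of -0.41 in wild type, where nSyb and Syt1 fell. Summed, they ran from 59052 to 92068 in midlife and 70820 to 93375 in young chm/+, and from 49081 to 74516 in midlife and 77721 to 94518 in young wild type. All 6 photoreceptor markers also had negative differences, with medians of -0.10 in chm/+ and in wild type, and 0 were called. The summed level of the 7 fat body markers ran from 105345 to 315863 in midlife chm/+ and 228861 to 525159 in young chm/+, and from 107227 to 200204 in midlife and 193727 to 298950 in young wild type. Most of that sum is Lsp2, a larval storage protein gene, which averaged 146622 in midlife and 335375 in young chm/+ heads, and 98900.4 in midlife and 200785 in young wild-type heads. Of the 7 markers 1 rose and 2 fell in chm/+, and 2 rose and 0 fell in wild type. The log2 difference was positive for 4 of 7 in chm/+ (median 0.10) and 5 of 7 in wild type (median 0.26), unlike the direction of the sum. Haemocyte markers summed to 10642 to 15368 in midlife and 11307 to 17365 in young chm/+, and to 15738 to 16514 in midlife and 10248 to 14186 in young wild type. Of the 8 measured, 0 rose and 3 fell in chm/+, and 3 rose and 0 fell in wild type. Their log2 differences were positive for 5 of 8 in each genotype, with a median of 0.13 in both. The 4 measured gut markers summed to 34371 to 61418 in midlife and 10733 to 32870 in young chm/+, and to 42058 to 59271 and 17747 to 24247 in midlife and young wild type. Of these 4, Amy-p and Amy-d, which encode amylases, rose in both genotypes, and Mal-A1 and Mal-A6, which encode maltases, were called in neither. The part of these tissues in the results on the Bomanin and IM genes was not tested.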

How the data were processed

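Heads were measured by polyadenylated RNA-seq in 20 libraries. The authors deposited 1 table of normalized counts per gene, a signal that is not whole-numbered. TopHat2 2.0.5, edgeR and genome build BDGP5 are named per the submitters' processing notes, and the sources used here do not give the counter, the annotation, the strand setting or any filter on low counts. Column names give the group of a library but not which listed sample it is, and 0 columns were left unused. Values of 1 to 15 were searched for the step of 1 read: at best 12.9% to 86.3% of them per library fell within 0.02 of a whole multiple, so reads were not recovered, no count model was run, and depth is unknown. Names of genes and their order on the arm come from RefSeq tables and an annotation of a later build, so no coordinates are given. Sequences are not given here.

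limma 3.58.1 (R 4.3.3) was fitted to log2(value + 14.5), an addend of 0.5 CPM of the mean column total, over 4 group means in all 20 libraries, with a mean trend. Fold changes are on that scale. The filter of 1 CPM in at least 4 libraries removed 0 genes. p-values were two-sided and adjusted by Benjamini-Hochberg over 9831 genes, and a gene was called where adjusted p was under 0.05. In data simulated for the wild-type comparison with age (9760 genes), 86.9% of 99 genes with a log2 change of 1, 100% of 100 genes with a change of 2 and 0.115% of unchanged genes were called. The simulated noise was independent between genes and libraries, and the changed genes were picked at random. The 7 genes deviated together within groups, so these rates need not hold for them. Intervals are 95%.

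The genes described, the pathway lists and the markers were chosen with earlier results of these data known. Beside the rule's genes and chm, the text names in each list the called gene with the smallest p, the 5 genes most like the mean profile, and, after their values were seen, other Bomanins, spz, Tl, Dif, dl, cact, IM14, spheroide in chm/+ and the fat body, neuronal and gut markers. Numbers in column names were checked as pairs: deviations of same-numbered midlife and young libraries correlated at 0.64, 0.20, 0.17 and 0.36 in chm/+, all above 0.1, and at -0.47, -0.16, -0.53 and 0.35 in wild type. The pairing in chm/+ was taken from the data, since no label states it. Same-numbered chm/+ libraries lay in the same set of columns, first or last, and same-numbered wild-type libraries in different sets. The check thus cannot tell pairing by number from a difference between the column sets. Alternatives were other scalings, addends, filters, library weights, no mean trend, a term for the set of columns, each set alone, the replicate block and each library left out.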

Additional observations from a re-analysis of the deposited data

Results flagged for a closer look

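In young wild-type heads IM10 read 21968 in library 2uy3, against 15863 in the next highest library, and IM23 read 4431 there, against 2013. Both gaps were wide for groups of 5 libraries by Dixon's test, at 0.803 and 0.789 of the group's range, above the 95% critical value. Of 28 groups tested 2 were flagged, where chance flags about 1 in 20. The genes share their libraries and both flags fell on 2uy3, so the 28 tests were not independent. Without 2uy3 the wild-type change with age was still called for IM10 and IM23.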

How the results depend on the processing

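Under the other scalings, addends, filters and the fit without a mean trend, the number of Bomanin and IM genes called was as reported in all 5 comparisons. Array weights gave 3758, 100, 3194 and 626 genes called for the wild-type change with age, the difference between genotypes in that change, and the young and midlife comparisons of genotypes, and 5, 0, 2 and 2 of the 7. A term for the column set gave 3090 genes with age in wild type (31.4%) and 6 of the 7, 394 young and 357 midlife genes between genotypes, and 2 of the 7 in young chm/+. The first 10 columns alone gave 3101 genes with age in wild type, 61 for the difference, 292 in youth and 270 (2.75%) at midlife. That fit called 5 of the 7 with age in wild type, 2 in youth and 0 at midlife. The last 10 columns alone gave 391, 364, 1, 17 and 16 genes in the order wild type, chm/+, difference, youth and midlife, and 0 of the 7 with age in wild type and 1 in chm/+, with fewer libraries in the fit.

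The replicate block over all groups gave 5 of the 7 in wild type, where only 2uo2 and 2uy2 of the same-numbered libraries deviated alike. It gave 127 genes at midlife between genotypes. Its number of all genes with age in wild type is not given here, so the 5 cannot be set against a share. The replicate block within chm/+, added after seeing the data, gave 53 genes for the difference. It ended the calls of IM2 and CG16836 with age in chm/+ and changed no other call of the 7.

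Leaving out single libraries gave 1601 to 2400 genes with age in wild type, 1235 to 1737 in chm/+, 17 to 66 for the difference (17 without 2uo4, 66 without CHMo5), 91 to 176 in youth (91 without 2uy1) and 112 to 248 at midlife (112 without 2uo4). Of the 7 it gave 2 to 6, 3 to 6, 0 to 0, 1 to 2 and 1 to 1.

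The values that changed sign had all been uncalled. For the difference, IM2 was -0.062 with the replicate block over all groups and -0.23 to 0.27 without single libraries, IM3 -0.016 to 0.44 and IM4 -0.46 to 0.027 without single libraries, and IM4 0.11 with array weights. In youth, array weights gave IM3 -0.25 and IM4 -0.20, and IM3 was -0.11 to 0.22 without single libraries. At midlife IM4 was 0.00097 with median-of-ratios scaling, 0.070 with the column set term, 0.31 in the last 10 columns and -0.23 to 0.25 without single libraries, and IM23 was -0.065 with that block and -0.21 to 0.42 without single libraries. The cause of these shifts was not tested. Depth is unknown, so no counting error could be given.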
